A study of Mus musculus with 16 samples.

Results

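The effect of Kdm7a knockdown on gene expression in the medial prefrontal cortex (mPFC) was compared between mice conditioned with morphine and mice conditioned with saline. The quantity described here is the interaction, which is the knockdown effect under morphine minus the knockdown effect under saline, on the log2 scale. Of the 26625 entries in the table of gene counts, 19069 are known genes, and 14162 of these had enough reads to be tested. All 16 mice of the series entered the fit.

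The animals were male C57BL/6 mice aged 8 to 10 weeks. An adeno-associated virus was injected into the mPFC on both sides. In the Kdm7a-shRNA groups, the virus carried a short hairpin RNA against Kdm7a under the U6 promoter and EGFP under the CMV promoter, and in the Ctrl groups a control hairpin. Neither promoter restricts expression to a cell type, and the whole dissected tissue was sequenced. During 10 days of conditioning, the morphine groups received morphine at 10 mg/kg in alternation with saline, and the saline groups received saline only. The tissue is from day 17, after 7 days of withdrawal. The Ctrl groups held 3 mice with saline (Ctrl + Saline) and 4 with morphine (Ctrl + Morphine). The knockdown groups held 5 mice with saline (Kdm7a-shRNA + Saline) and 4 with morphine (Kdm7a-shRNA + Morphine). The libraries are numbered as replicates within each group, and each was treated as a different mouse. In bulk tissue, fewer cells of a type and less RNA per cell cannot be told apart.

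Dimethyl marks on certain lysines of histone H3 accompany silent chromatin, and the enzyme KDM7A erases such marks. The mPFC takes part in the memory of drug reward, and neurons there change their synapses and spines during withdrawal. Protein sorting through the endoplasmic reticulum (ER) and respiration in mitochondria supply the membrane proteins and the energy on which such changes depend. An interaction at a gene means only that knockdown moved its mRNA by different amounts under the 2 treatments. A negative interaction means that knockdown raised the mRNA less, or lowered it more, with morphine than with saline.

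Between 6596991 and 12418112 reads per mouse were counted, and levels are given as normalized CPM, which are the counted reads scaled to a common library size in CPM (TMM scaling). The interaction compares 4 small groups, and its median standard error over the tested known genes was 0.30 on the log2 scale, against 0.22 for the knockdown effect under saline and 0.21 under morphine. Kdm7a itself was at 9.08, 9.41 and 9.78 normalized CPM in the Ctrl + Saline mice and at 4.93 to 6.07 in the Kdm7a-shRNA + Saline mice, with no overlap. It was at 6.19 to 8.89 in the Ctrl + Morphine mice and at 3.01 to 6.28 in the Kdm7a-shRNA + Morphine mice, and there the lowest Ctrl mouse fell just below the highest Kdm7a-shRNA mouse. The interaction of Kdm7a was 0.10 with a standard error of 0.29 (edgeR quasi-likelihood test, adjusted p = 0.945), so a difference in the depth of knockdown between treatments was not detectable with this error.

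In all, 16 known genes passed the threshold for the interaction. They are 0.113% of those tested, and the threshold was an adjusted p under 0.05 in edgeR's quasi-likelihood test with at least a 1.5-fold difference. Of these, 14 (0.0989%) were lower and 2 (0.0141%) were higher. The 14 lower genes were Tmem70, Creld2, Saraf, Fez2, Pdgfa, Dusp28, Rab11a, Tspan3, Tm2d1, Poldip2, Spef1, Gde1, Sppl2b and Rtraf, and the 2 higher genes were Ssr3 and Slc25a12. At an unadjusted p under 0.05 with the same fold, 322 genes (2.27%) were higher and 901 (6.36%) lower, together 1223 (8.64%). Of the 14162 tested known genes, DESeq2's Wald test called 205 and limma-voom 50, and all 16 were among both sets. Counts of list members called by these 2 tools are to be read against these larger totals. Fewer of the 16 passed with a correction for transcript GC content or with the replicate number as a block, as given below.

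The count depended on single mice. Without Ctrl + Saline replicate 1, 239 genes passed, and without replicate 2 or replicate 3 of that group none did, where 1316 and 1271 genes had an unadjusted p under 0.05 at any fold, against 1677 (11.8%) with every mouse. Without Kdm7a-shRNA + Morphine replicate 2, 101 genes passed, and without Ctrl + Morphine replicate 3, 37. It was 1 gene without Kdm7a-shRNA + Morphine replicate 1, Ctrl + Morphine replicate 1 or Ctrl + Morphine replicate 4, and 2 without Kdm7a-shRNA + Morphine replicate 4 or Kdm7a-shRNA + Saline replicate 5. It was 3 without Kdm7a-shRNA + Saline replicate 1, 4 without Ctrl + Morphine replicate 2 or Kdm7a-shRNA + Saline replicate 2, 5 without Kdm7a-shRNA + Morphine replicate 3, and 6 without Kdm7a-shRNA + Saline replicate 3 or replicate 4.

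**Figure D1:**
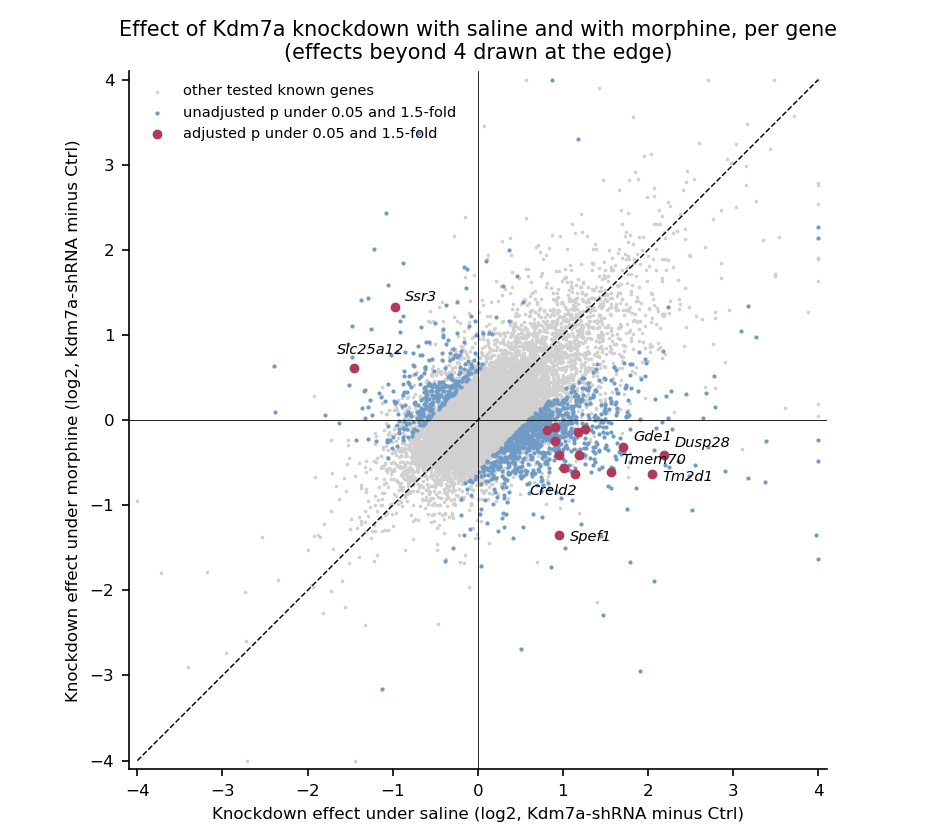
Each point is 1 of 14162 tested known genes, with the knockdown effect under saline on the horizontal axis and under morphine on the vertical axis, both as log2 of Kdm7a-shRNA over Ctrl, and the dashed line marks equal effects. The 14 lower genes lie to the right and below the line with a positive effect under saline and a negative one under morphine, and Ssr3 and Slc25a12 lie in the opposite corner. Effects beyond 4 are drawn at the edge.

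The 14 lower genes had the sign of each effect in common. Their knockdown effect under saline was positive, from 0.81 to 2.19, with adjusted p-values from 0.000235 to 0.0311. By the unadjusted rule 14 of 14 were higher, where 13.7% of all tested known genes were. Their knockdown effect under morphine was negative, from -0.09 to -1.35, and passed the adjusted threshold in 3 of 14, Tmem70, Creld2 and Spef1, where 1.27% of known genes were lower. With the Ctrl virus, their difference of morphine from saline was positive, from 0.49 to 1.66, but no known gene passed this comparison in edgeR (0%), where 1782 genes (12.6%) had an unadjusted p under 0.05. In 13 of the 14, every Kdm7a-shRNA + Saline mouse was above every Ctrl + Saline mouse, as in 13.2% of known genes. In 13 of the 14, every Ctrl + Morphine mouse was above every Ctrl + Saline mouse, as in 8.50% of known genes. These comparisons share mice with the interaction and are its parts, so they are no separate evidence for it. The Ctrl + Saline group was the lowest in 13 of the 14 genes by its mean, and Spef1 was the exception, where the Kdm7a-shRNA + Morphine group was lower.

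Within the groups, 2 mice stood nearest to the other groups. Among the Ctrl + Saline mice, replicate 1 had the highest level in 14 of the 14 lower genes and the lowest level of Ssr3 and Slc25a12. Among the Kdm7a-shRNA + Morphine mice, replicate 2 had the highest level in 12 of the 14 and replicate 3 in the other 2.

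**Figure D2:**
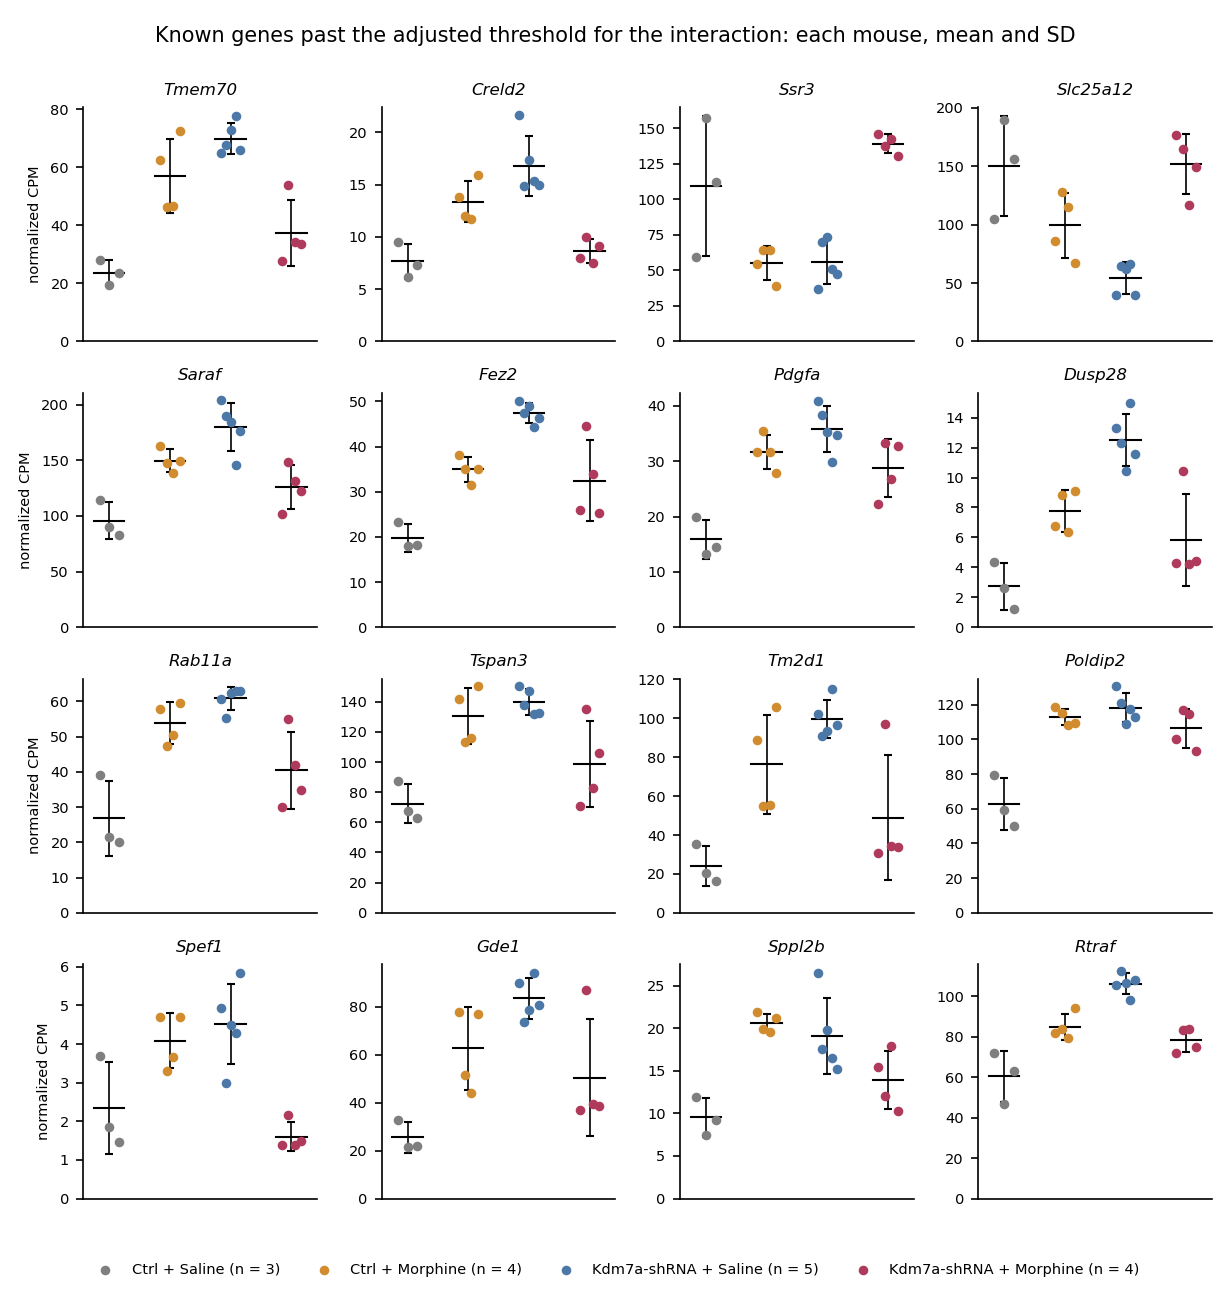
Normalized CPM of the 16 genes that passed, with 1 point per mouse, a bar at the group mean and whiskers of 1 SD; the axes start at 0. In the 14 lower genes the Ctrl + Saline mice sit low and the Kdm7a-shRNA + Saline mice high, and in Ssr3 and Slc25a12 the order is turned.

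Tmem70 had the smallest p-value. It lies on chromosome 1 at chr1:16665207-16678275 (GRCm38, plus strand) and encodes a protein of the inner mitochondrial membrane that helps to assemble ATP synthase. The Ctrl + Saline mice had 28.0, 19.4 and 23.7 normalized CPM and the Kdm7a-shRNA + Saline mice 64.8, 65.9, 67.7, 72.9 and 77.7. The Ctrl + Morphine mice had 46.2, 46.7, 62.5 and 72.4 and the Kdm7a-shRNA + Morphine mice 27.7, 33.4, 34.3 and 53.7. The saline groups were far apart, and with morphine only the highest Kdm7a-shRNA mouse reached into the range of the Ctrl mice. Knockdown raised Tmem70 by 1.56 ± 0.21 (SE) under saline and lowered it by 0.61 ± 0.19 under morphine, and the interaction was -2.17 ± 0.28 (adjusted p = 0.00705). Tmem70 is also one of 7 genes picked from earlier results of these libraries for being higher with morphine and lower with knockdown under morphine, so its negative sign is not independent of that choice.

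Creld2 encodes an ER protein that is made in larger amounts during ER stress and helps other proteins to fold. It lies at chr15:88819646-88826683 on the plus strand. The 3 Ctrl + Saline mice had 6.15, 7.29 and 9.52 normalized CPM, and the 5 Kdm7a-shRNA + Saline mice had 14.86, 14.97, 15.3, 17.3 and 21.6. The 4 Ctrl + Morphine mice had 11.69, 11.95, 13.8 and 15.9, and the 4 Kdm7a-shRNA + Morphine mice had 7.48, 7.97, 9.13 and 9.95. Thus knockdown separated the groups under each treatment, upwards under saline and downwards under morphine. The effects were 1.14 ± 0.19 and -0.63 ± 0.18, and the interaction was -1.77 ± 0.26 (adjusted p = 0.0182).

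Ssr3 and Slc25a12 moved the other way. Ssr3 encodes a subunit of the translocon-associated complex, which takes part in the entry of new proteins into the ER, and lies at chr3:65379655-65392623 on the minus strand. The Ctrl + Saline mice spread widely, with 59.2, 112.2 and 157.5 normalized CPM, and the Kdm7a-shRNA + Saline mice had 36.9, 47.5, 50.7, 69.9 and 73.7. The Ctrl + Morphine mice had 38.9, 54.4, 64.3 and 64.5 and the Kdm7a-shRNA + Morphine mice 130.6, 138.0, 142.5 and 146.0. The morphine groups did not overlap and the saline groups did. Knockdown raised Ssr3 by 1.33 ± 0.251 under morphine, the effect under saline was -0.98 ± 0.251, and the interaction was 2.30 ± 0.35 (adjusted p = 0.0230).

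Slc25a12 encodes aralar, the carrier that exchanges aspartate for glutamate across the inner mitochondrial membrane, and lies at chr2:71271063-71367749 on the minus strand. The Ctrl + Saline mice had 105.2, 155.8 and 189.8 normalized CPM and the Kdm7a-shRNA + Saline mice 39.8, 40.0, 61.9, 64.3 and 66.6. The Ctrl + Morphine mice had 67.5, 86.3, 115.3 and 128.2 and the Kdm7a-shRNA + Morphine mice 116.8, 149.1, 164.7 and 177.0. The saline groups did not overlap, and with morphine the lowest Kdm7a-shRNA mouse lay below the highest Ctrl mouse. The interaction was 2.08 ± 0.32 (adjusted p = 0.0230). Slc25a12 was also the 1 known gene (0.00706%) that passed between Kdm7a-shRNA + Morphine and Kdm7a-shRNA + Saline mice, at 1.48 ± 0.22 (adjusted p = 0.0394).

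Tmem70, Creld2, Ssr3 and Slc25a12 passed in each of 10 alternative analyses that kept every mouse. With 1 mouse left out, Tmem70 passed in 14 of 16 settings, Creld2 in 11, Ssr3 in 9 and Slc25a12 in 8. The other 12 genes that passed each did so in only 3 or 4 of these settings. The sequences upstream of Creld2 and Slc25a12 are shown because they are among the genes whose calls changed least. Each sequence runs 5′ to 3′ on the gene's strand from 250 bases before the annotated start to 50 after it (RefSeq, GRCm38.p6). In Creld2 the capitals mark a match to the ER stress element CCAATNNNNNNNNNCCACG, the sequence bound by ATF6 with NF-Y, read here on the opposite strand as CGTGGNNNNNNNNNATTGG. In Slc25a12 neither this element nor a CCAAT box (CCAAT or, on the other strand, ATTGG) was found.
Creld2, chr15:88819396-88819695, plus strand: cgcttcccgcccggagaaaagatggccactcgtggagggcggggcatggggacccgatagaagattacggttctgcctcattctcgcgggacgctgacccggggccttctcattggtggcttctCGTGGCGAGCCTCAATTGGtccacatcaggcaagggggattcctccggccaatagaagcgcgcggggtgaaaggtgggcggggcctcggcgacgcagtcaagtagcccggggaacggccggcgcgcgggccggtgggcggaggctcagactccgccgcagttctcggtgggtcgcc
Slc25a12, chr2:71367706-71368005, minus strand: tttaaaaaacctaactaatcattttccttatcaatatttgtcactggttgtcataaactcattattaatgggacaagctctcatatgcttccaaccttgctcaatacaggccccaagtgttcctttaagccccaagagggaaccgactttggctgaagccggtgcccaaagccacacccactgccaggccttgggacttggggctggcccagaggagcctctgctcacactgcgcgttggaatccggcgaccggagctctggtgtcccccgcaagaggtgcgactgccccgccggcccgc
The match in the Creld2 window begins 126 bases before the start, and its first 5 bases in the motif's own direction are a CCAAT box. Both strands were searched in 32851 promoter windows of the same length, and the ER stress element was in 0.119% of them. Of the 13 genes among the 16 with an entry, Creld2 alone held it. A CCAAT box was in 7 of the 13, against 37.4% of all windows. A gene was counted if any of its windows matched, while the percentages are of windows, so these are unlike units. The cyclic AMP response element TGACGTCA (1.79% of all windows) and the ATF4 element TGATGCAA (0.895%) were in none of the 13. Such matches describe the sequence only.

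Among the other 12 lower genes, Saraf, which resides in the ER and limits calcium entry, was at 82.7, 90.3 and 114.3 normalized CPM in the Ctrl + Saline mice and at 145.8 to 204.2 in the Kdm7a-shRNA + Saline mice. It was at 138.6 to 163.1 in the Ctrl + Morphine mice and at 101.6 to 148.6 in the Kdm7a-shRNA + Morphine mice, so that the saline groups were apart and the morphine groups overlapped. Its interaction was -1.16 ± 0.19 (adjusted p = 0.0394).

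Rab11a, the small GTPase of recycling endosomes, was at 20.0, 21.5 and 39.0 normalized CPM in the Ctrl + Saline mice and between 55.4 and 63.1 in the Kdm7a-shRNA + Saline mice. It was between 47.3 and 59.7 in the Ctrl + Morphine mice and between 30.03 and 55.2 in the Kdm7a-shRNA + Morphine mice. The 5 Kdm7a-shRNA + Saline mice were close together, and 1 Ctrl + Saline mouse lay well above the other 2. The interaction was -1.59 ± 0.29 (adjusted p = 0.0472). Tspan3, a tetraspanin, had an interaction of -1.35 ± 0.24, and Sppl2b, an intramembrane protease, of -1.57 ± 0.29. Gde1, a membrane phosphodiesterase that acts on glycerophospholipids, had one of -2.03 ± 0.37.

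Tm2d1, a membrane protein that can bind amyloid-β, had the most negative interaction of the 16, at -2.69 ± 0.49 (adjusted p = 0.0472). It was at 16.2, 20.6 and 35.6 normalized CPM in the Ctrl + Saline mice and at 90.9 to 115.3 in the Kdm7a-shRNA + Saline mice. The Kdm7a-shRNA + Morphine mice had 30.8, 33.8, 34.1 and 97.2, so that replicate 2 stood with the Kdm7a-shRNA + Saline mice and the other 3 with the Ctrl + Saline mice. The same mouse stood apart in Gde1, at 86.8 against 36.9 to 39.5 in the other 3, and in Dusp28, a phosphatase, at 10.4 against 4.21 to 4.43.

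Pdgfa, the growth factor ligand that drives oligodendrocyte precursors, was at 13.3, 14.4 and 19.8 normalized CPM in the Ctrl + Saline mice and at 27.8 to 35.4 in the Ctrl + Morphine mice. It was at 29.9 to 40.9 in the Kdm7a-shRNA + Saline mice and at 22.2 to 33.2 in the Kdm7a-shRNA + Morphine mice. The Ctrl + Saline mice were thus below the mice of every other group, and its interaction was -1.32 ± 0.23 (adjusted p = 0.0472). Fez2, a protein of axon outgrowth, was lowest in the same mice, at 18.0, 18.2 and 23.4 normalized CPM, and highest in the Kdm7a-shRNA + Saline mice, at 44.3 to 50.2. The interaction of Fez2 was -1.36 ± 0.23 (adjusted p = 0.0394). Poldip2, at -0.997 ± 0.18, and Rtraf, which takes part in RNA transport, at -0.93 ± 0.17, had the smallest differences that passed. Spef1, a protein of microtubules in cilia, and Dusp28 rested on few reads, 9 to 58 per mouse for Spef1 and 9 to 133 for Dusp28.

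Next on the higher side, 10 genes had an unadjusted p among the 12 smallest without passing after adjustment in edgeR, and DESeq2 called all 10. Hacd1, an enzyme of very-long-chain fatty acid synthesis, had an interaction of 2.22 ± 0.44 (adjusted p = 0.0641). Its Ctrl + Saline mice were at 97.0, 171.7 and 199.7 normalized CPM and its Kdm7a-shRNA + Saline mice at 32.2 to 94.1, while the Ctrl + Morphine mice were at 41.5 to 92.4 and the Kdm7a-shRNA + Morphine mice at 96.2 to 156.7. Neither pair of groups overlapped. Fzd7, a Wnt receptor, had 2.78 ± 0.60 (adjusted p = 0.0732) at levels of 0.535 to 5.995 normalized CPM. Gpm6b, a neural proteolipid, had 1.27 ± 0.27 and Xpo1, the exporter of proteins from the nucleus, 1.47 ± 0.33. Fmo1, a flavin monooxygenase, had 1.13 ± 0.23.

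Of the 10, 3 were encoded in mitochondrial DNA. Transcripts of this genome encode core subunits of the respiratory chain. mt-Co1, the catalytic subunit of cytochrome c oxidase, was at 1066, 1410 and 2371 normalized CPM in the Ctrl + Saline mice and at 505.4 to 1240 in the Kdm7a-shRNA + Saline mice. It was at 727 to 1452 in the Ctrl + Morphine mice and at 1737 to 2922 in the Kdm7a-shRNA + Morphine mice, which lay above every Ctrl + Morphine mouse, as in 7.08% of known genes. The interaction of mt-Co1 was 1.95 ± 0.41 (adjusted p = 0.0719). mt-Nd4 and mt-Nd4l, subunits of complex I, had 1.52 ± 0.31 (adjusted p = 0.0675) and 2.08 ± 0.44 (adjusted p = 0.0730), and their genes overlap by a few bases, so that their reads may not be separate.
Of 13 tested genes of mitochondrial DNA, 7 were higher at an unadjusted p under 0.05 and none lower, where 3.71% and 8.13% of known genes were higher and lower at any fold. None passed the adjusted threshold in edgeR's quasi-likelihood test, while DESeq2's Wald test and limma-voom each called 3, mt-Co1, mt-Nd4 and mt-Nd4l. Their median interaction was 0.66, against -0.04 for all tested known genes. This set was chosen after its values were seen. Together these genes took 0.797% to 1.22% of the reads in Ctrl + Saline mice, 0.636% to 0.996% in Ctrl + Morphine mice, 0.539% to 0.841% in Kdm7a-shRNA + Saline mice and 0.976% to 1.48% in Kdm7a-shRNA + Morphine mice.

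Subunits of the same complexes that the nucleus encodes did not follow 1 direction. Of 73 such subunits, 7 were higher and 4 lower at an unadjusted p under 0.05, 9.59% and 5.48% against 3.71% and 8.13% of all tested known genes, with a median of 0.08. None passed in edgeR, while DESeq2 and limma-voom each called Cox5a and Cyc1, both lower. Cox5a, a subunit of cytochrome c oxidase, had an interaction of -2.66 ± 0.54 (adjusted p = 0.0641). Its Ctrl + Saline mice were at 29.7, 37.5 and 64.0 normalized CPM and its Kdm7a-shRNA + Saline mice at 153.9 to 164.9. The Ctrl + Morphine mice fell into 2 pairs, 85.5 and 88.7 against 173.4 and 188.3, and Kdm7a-shRNA + Morphine replicate 2 had 162.1 against 47.9, 48.03 and 49.95 in the other 3. Uqcrfs1 and Cyc1, subunits of complex III, had -2.28 ± 0.63 and -1.23 ± 0.27. With 1 mouse left out, Cox5a passed in edgeR in 3 of 16 settings, Cyc1 in 2 and Uqcrfs1 in 1. Ndufv1, of complex I, had 0.47 ± 0.15, and 0.70 with the GC correction. Among 37 mitochondrial carriers of the SLC25 family, 2 were higher (5.41%), Slc25a12 among them, and 5 lower (13.5%), and the phosphate carrier Slc25a3 had -0.94 ± 0.30, and passed at -1.47 without Ctrl + Saline replicate 1 (edgeR, adjusted p = 5.25e-05).

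Among 28 ER chaperones and folding enzymes, 7 were lower at an unadjusted p under 0.05, none was higher and 1, Creld2, passed, against 8.13% lower and 3.71% higher among all tested known genes. DESeq2 called Creld2, Pdia3 and Sdf2l1, and limma-voom Creld2 and Pdia3. The median was -0.24, and it was -0.13 without Ctrl + Saline replicate 2. Sdf2l1, a cofactor of the chaperone BiP, was at 2.54, 3.31 and 6.87 normalized CPM in the Ctrl + Saline mice and at 11.8 to 21.7 in the Kdm7a-shRNA + Saline mice. It was at 6.85 to 8.89 in the Ctrl + Morphine mice and at 5.10 to 11.7 in the Kdm7a-shRNA + Morphine mice, which overlapped. The interaction of Sdf2l1 was -1.89 ± 0.42 (adjusted p = 0.0789). Pdia3, a protein disulfide isomerase, had -1.48 ± 0.34 (adjusted p = 0.0838) and Manf, a secreted ER protein, -0.71 ± 0.26. Without Ctrl + Saline replicate 2, Manf was at -0.46. In Creld2, Sdf2l1, Pdia3 and Manf, the 4 members of the list compared by mouse, every Kdm7a-shRNA + Morphine mouse was below every Kdm7a-shRNA + Saline mouse, as in 0.967% of known genes. These 4 were named for an unadjusted p under 0.05 in the interaction. This comparison is a part of the interaction, so it is no separate evidence, and the other members were not compared by mouse.

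Of 29 genes of the integrated stress response and targets of its factor ATF4, 1 was higher and 6 were lower at an unadjusted p under 0.05 (3.45% and 20.7%, against 3.71% and 8.13% of all tested known genes), and none passed in edgeR, DESeq2 or limma-voom. The median interaction was -0.19, while the median knockdown effects were 0.62 under saline and 0.37 under morphine. Shmt2, a mitochondrial enzyme of 1-carbon metabolism, had an interaction of -1.04 ± 0.34, Chac1, which degrades glutathione, -0.91 ± 0.32 and Slc3a2, an amino acid transporter chain, -0.60 ± 0.22. Vldlr, a lipoprotein receptor, was the 1 higher gene, at 1.18 ± 0.43 and at 0.71 without Ctrl + Saline replicate 2. The 34 interferon-stimulated genes had 32 values below 0, as had 7558 of all 14162 genes, and a median of -0.46, yet none had an unadjusted p under 0.05. The median ran from -1.01 without Kdm7a-shRNA + Morphine replicate 3 to -0.15 without Kdm7a-shRNA + Saline replicate 3, and the summed level of these genes ranged from 1441 to 6090 normalized CPM within the Kdm7a-shRNA + Saline group alone.

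**Figure D3:**
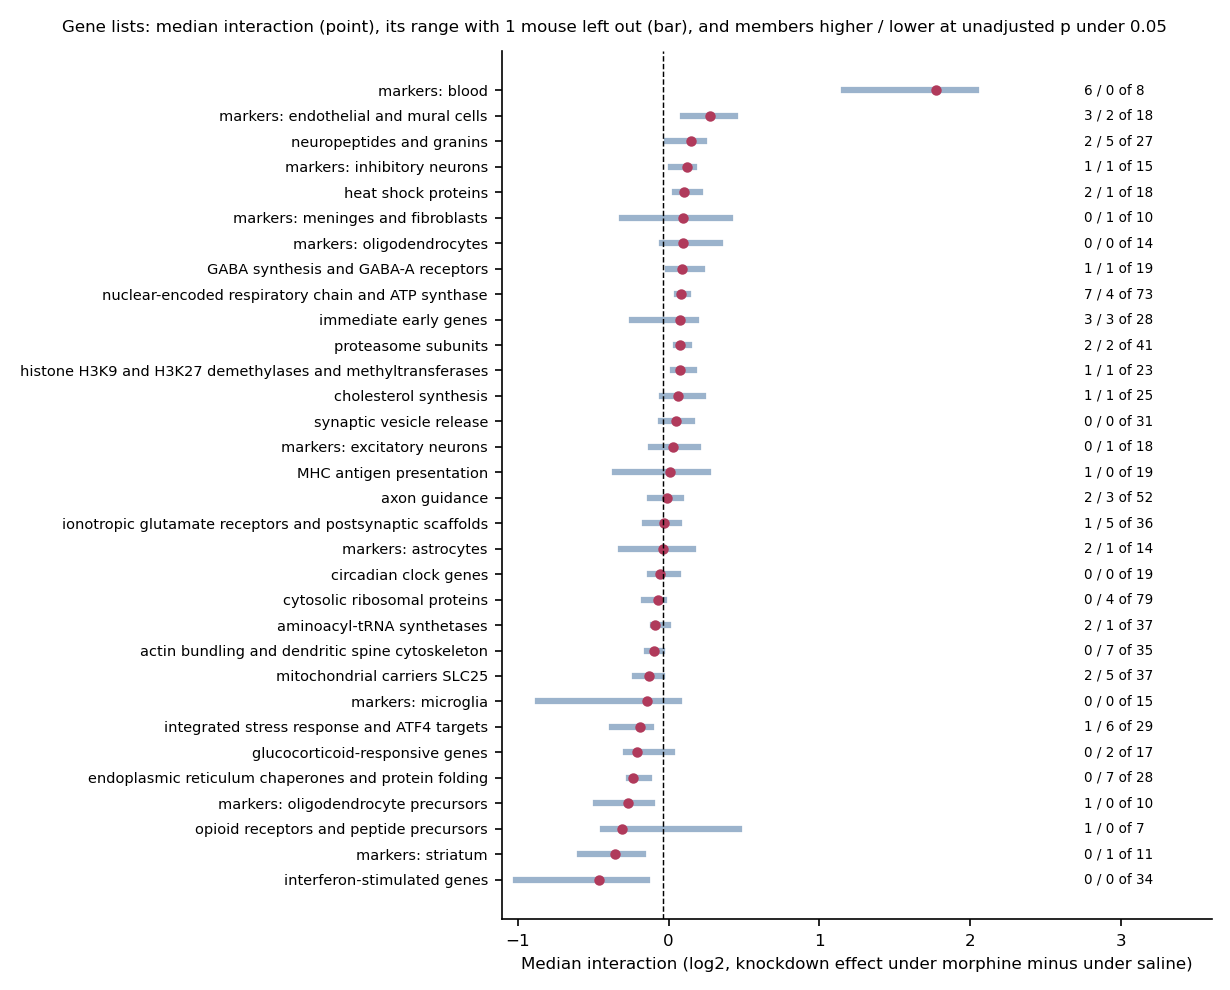
Median interaction of each gene list (point, log2) and its lowest to highest value with 1 mouse left out (bar); the dashed line is the median of all tested known genes, and the numbers give the members higher and lower at an unadjusted p under 0.05 of those tested. Blood markers stand apart at 1.77, with 6 of 8 higher, and ER chaperones have 7 of 28 lower and none higher.

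The genes of synapses and spines were tested because the study asks how KDM7A bears on them. Of 35 tested genes of actin bundling and the spine cytoskeleton, 7 were lower at an unadjusted p under 0.05 and none was higher, against 8.13% and 3.71% of all tested known genes, with a median of -0.10. None passed in edgeR or limma-voom, while DESeq2 called Fscn1 and Ppp1r9b, both lower. Fscn1, the actin-bundling protein fascin that the study follows, was at 33.8, 37.1 and 53.5 normalized CPM in the Ctrl + Saline mice and at 55.6, 67.5, 90.2 and 98.5 in the Ctrl + Morphine mice. It was at 38.2 to 53.9 in the Kdm7a-shRNA + Saline mice and at 33.4 to 46.5 in the Kdm7a-shRNA + Morphine mice. The Ctrl + Morphine mice were above the mice of the other 3 groups, and those overlapped one another. The interaction of Fscn1 was -1.03 ± 0.27 (unadjusted p = 0.00154, adjusted p = 0.141), with knockdown effects of 0.09 ± 0.20 under saline and -0.94 ± 0.19 under morphine. In DESeq2 the interaction of Fscn1 passed, at -1.002 (adjusted p = 0.0391), and with a correction for transcript GC content it was -0.58 (adjusted p = 0.446). The study had taken Fscn1 as a candidate from these libraries, so its sign here is not independent evidence. It then followed Fscn1 by qRT-PCR, knockdown and ChIP-qPCR, which these counts do not bear on.

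Ppp1r9b, the spine scaffold spinophilin, had an interaction of -1.28 ± 0.27 (adjusted p = 0.0724), Dbn1, the spine actin-binding protein drebrin, -1.02 ± 0.30 and the GTPase Rac1 -0.57 ± 0.20. With 1 mouse left out, Ppp1r9b passed in edgeR in 2 of 16 settings, and Fscn1 and Dbn1 in 1 each. Among 36 ionotropic glutamate receptors and postsynaptic scaffolds, 1 was higher and 5 lower at an unadjusted p under 0.05, which is 2.78% and 13.9% against 3.71% and 8.13% of all tested known genes. The list as a whole was split, with 17 values above 0 and 19 below. Its median was -0.03, against -0.04 for all tested known genes. Homer3, a postsynaptic scaffold, was at 4.37, 4.98 and 5.68 normalized CPM in the Ctrl + Saline mice, at 8.55 to 15.6 in the Kdm7a-shRNA + Saline mice, at 5.98 to 12.1 in the Ctrl + Morphine mice and at 5.76 to 9.19 in the Kdm7a-shRNA + Morphine mice. Only the first of these groups was apart from the others. Its interaction was -1.57 ± 0.34 (adjusted p = 0.0732). Grin1, the obligate subunit of NMDA receptors, had -0.92 ± 0.29, the kainate receptor subunit Grik4 -1.63 ± 0.42 and the scaffold Dlgap3 -0.97 ± 0.35. None of the 36 passed in edgeR or limma-voom, while DESeq2 called Homer3 and Grik4. With the GC correction the interaction was -0.72 for Ppp1r9b (adjusted p = 0.273), -0.55 for Grin1 (adjusted p = 0.505) and -0.28 for Dlgap3 (adjusted p = 0.851). None of 31 genes of synaptic vesicle release had an unadjusted p under 0.05.

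Of 19 genes of inhibitory transmission, 1 was higher and 1 lower at an unadjusted p under 0.05, 5.26% each and near the 3.71% and 8.13% of all tested known genes. Slc32a1, which loads GABA into vesicles, had -0.95 ± 0.29, and the receptor subunit Gabra2 had 0.79 ± 0.31. Of 27 neuropeptides and granins, 2 were higher and 5 lower (7.41% and 18.5%). The median was 0.15, with 17 values above 0 and 10 below. Cck, which encodes cholecystokinin, was at 149.2, 192.4 and 375.9 normalized CPM in the Ctrl + Saline mice and at 462.3 to 554.6 in the Ctrl + Morphine mice. It was at 272.5 to 578.0 in the Kdm7a-shRNA + Saline mice and at 240.0 to 453.1 in the Kdm7a-shRNA + Morphine mice, and only the Ctrl groups and the morphine groups were apart. The interaction of Cck was -1.42 ± 0.39 (adjusted p = 0.152), and it passed in DESeq2. Chga, which encodes chromogranin A, had -0.66 ± 0.19, with all Kdm7a-shRNA + Morphine mice at 46.8 to 51.8 and all Ctrl + Morphine mice at 66.7 to 87.9. Npy, which encodes neuropeptide Y, had 0.58 ± 0.23 (adjusted p = 0.355). Knockdown lowered Npy under both treatments, with effects of -1.81 ± 0.17 under saline and -1.22 ± 0.17 under morphine. With the GC correction Slc32a1 was at -0.42 (adjusted p = 0.713) and Chga at -0.32 (adjusted p = 0.663).

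A set of 7 genes had been picked from earlier results of these libraries for being higher with morphine and lower with knockdown under morphine, which favours a negative interaction by construction. Of the 7, 6 had an unadjusted p under 0.05, against 11.8% of all tested known genes. In edgeR 1 passed, Tmem70, and DESeq2 called Nudt19 and Cck besides. The axon guidance ligand Slit1 had an interaction of -1.43 ± 0.43 and the neuronal adhesion molecule Icam5 -1.38 ± 0.43. Nudt19, a peroxisomal hydrolase, had -1.45 ± 0.32 (adjusted p = 0.0732), Tusc3, a subunit of the oligosaccharyltransferase, -0.80 ± 0.25, and the transcription factor Fezf2 -0.70 ± 0.40. With the GC correction Icam5 was at -0.79 (adjusted p = 0.562), and without Kdm7a-shRNA + Saline replicate 4 Fezf2 was at -0.40. In Slit1, Icam5, Nudt19 and Tusc3 the Ctrl + Morphine mice were above the Ctrl + Saline and the Kdm7a-shRNA + Morphine mice, while the groups with saline overlapped. All Kdm7a-shRNA + Morphine mice were below all Ctrl + Morphine mice in 4.82% of known genes, and these genes had been picked for this direction. In Tmem70 the groups with saline did not overlap.

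**Figure D4:**
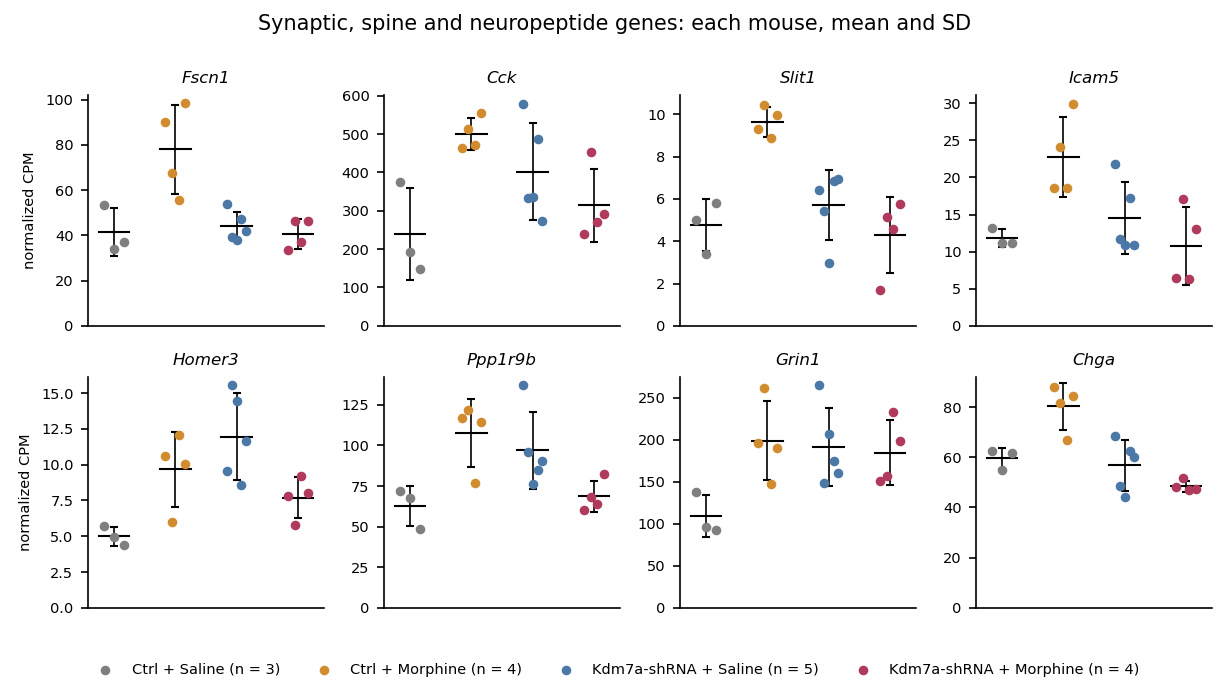
Normalized CPM of 8 synaptic, spine and neuropeptide genes, with 1 point per mouse, a bar at the group mean and whiskers of 1 SD; the axes start at 0. In Fscn1, Slit1 and Icam5 the Ctrl + Morphine mice stand above the mice of both Ctrl + Saline and Kdm7a-shRNA + Morphine.

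Among 28 immediate early genes, which neurons switch on during activity, 3 were higher and 3 lower at an unadjusted p under 0.05, 10.7% each against 3.71% and 8.13% of all tested known genes. Fos was at 45.3, 50.9 and 54.9 normalized CPM in the Ctrl + Saline mice and at 21.3 to 35.0 in the Kdm7a-shRNA + Saline mice. It was at 21.9 to 37.4 in the Ctrl + Morphine mice and at 23.5, 25.6, 30.1 and 69.9 in the Kdm7a-shRNA + Morphine mice, where replicate 4 held the highest value. Its interaction was 1.19 ± 0.41 (adjusted p = 0.261). Without Kdm7a-shRNA + Morphine replicate 4 the interaction of Fos was 0.698, and the median of these 28 genes went from 0.08 to -0.24. Inhba, which encodes a subunit of activin, had 1.78 ± 0.60, Ier2 -1.36 ± 0.45 and Ier5 -0.88 ± 0.30. Without Ctrl + Saline replicate 1, Ier2 passed at -2.19 (edgeR, adjusted p = 0.00299). Of 7 tested opioid receptors and peptide precursors, 1 was higher, the kappa receptor Oprk1, at 1.41 ± 0.63 and levels of 0.34 to 1.72 normalized CPM. Of 23 tested enzymes that add or remove methyl groups at H3K9 and H3K27, 1 was higher and 1 lower, with a median of 0.07. The higher gene was Uty, a Y-linked relative of the H3K27 demethylases, at 0.84 ± 0.32 (adjusted p = 0.328). The lower gene was Ehmt2, the methyltransferase G9a that makes H3K9me2. It was at 57.0, 69.5 and 76.0 normalized CPM in the Ctrl + Saline mice and at 78.6 to 121.4 in the Kdm7a-shRNA + Saline mice, at 87.9 to 107.7 in the Ctrl + Morphine mice and at 62.5 to 85.3 in the Kdm7a-shRNA + Morphine mice. Neither pair overlapped, upwards under saline and downwards under morphine, and the interaction of Ehmt2 was -0.81 ± 0.21 (adjusted p = 0.135). It passed in DESeq2, at -0.78 (adjusted p = 0.0343), and was -0.34 with the GC correction (adjusted p = 0.597).

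Markers of cell types that the dissected tissue could hold were counted in the same way, to be read against the 3.71% higher and 8.13% lower among all tested known genes. Of 18 markers of excitatory neurons, 1 was lower, and of 15 of inhibitory neurons, 1 was higher and 1 lower. Of 14 astrocyte markers 2 were higher and 1 lower, of 10 markers of oligodendrocyte precursors 1 was higher, and of 10 of meninges and fibroblasts 1 was lower. Of 11 striatal markers, which a dissection could include, 10 had values below 0, with a median of -0.35, and 1 was lower, Ppp1r1b, which encodes DARPP-32, at -1.11 ± 0.34 (adjusted p = 0.214) and at -0.66 with the GC correction (adjusted p = 0.554). Their summed level was 165.2 to 198.1 normalized CPM in the Ctrl + Saline mice, 223.4 to 269.2 in the Ctrl + Morphine mice, 123.9 to 301.4 in the Kdm7a-shRNA + Saline mice and 161.0 to 219.6 in the Kdm7a-shRNA + Morphine mice, and its part in other results was not tested. None of 14 oligodendrocyte or 15 microglia markers had an unadjusted p under 0.05. Of 18 endothelial and mural markers, 3 were higher and 2 lower, among them Rgs5 at 0.72 ± 0.21 and Tek at 0.82 ± 0.29 against Cldn5 at -1.39 ± 0.51 and Flt1 at -0.75 ± 0.28. Without Ctrl + Saline replicate 1, Cldn5 passed at -2.33 (edgeR, adjusted p = 0.00387). The markers of blood stood apart. Of 8 tested, 6 were higher and none lower, with a median of 1.77. None passed in edgeR, while DESeq2 called 4 globin genes, among the 205 known genes that it called in all. Their summed level was 743.7 to 1580 normalized CPM in the Ctrl + Saline mice, 387.6 to 688.5 in the Ctrl + Morphine mice, 402.4 to 587.8 in the Kdm7a-shRNA + Saline mice and 325.9 to 1210 in the Kdm7a-shRNA + Morphine mice. The beta-globin genes Hbb-bt and Hbb-bs had interactions of 1.92 ± 0.46 and 1.51 ± 0.43, and globin genes share reads with near-identical copies. The blood markers were thus highest in the Ctrl + Saline mice, with Kdm7a-shRNA + Morphine replicate 3 in the same range, and their part in the interaction of other genes was not tested.

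The sign of the interaction moved with the base composition of transcripts. Over 14160 tested known genes with an annotated transcript (GENCODE vM21), the rank correlation of the interaction with transcript GC content was -0.32 and with transcript length 0.09. These points are genes of the same 16 libraries and are not independent. The median interaction was 0.16 in 873 genes with under 40% GC and -0.49 in 673 genes with 60% or more. The share with an unadjusted p under 0.05 in the lower direction rose from 2.18% to 27.2% between these bins, and in the higher direction it fell from 8.48% to 0.149%. The median GC content was 44.6% in the 322 higher genes, 55.6% in the 901 lower genes and 50.04% in all tested known genes, while it was 51.1% in the 16 that passed. Mean transcript GC, weighted by reads, was 50.8% to 51.2% in the Ctrl + Saline mice and 51.1% to 51.6% in the other 13. With a correction for GC content, chosen after the data had been seen, 6 of the 16 passed and no other gene did. The other 10 kept their direction, from -0.834 for Poldip2 to -2.745 for Tm2d1, with adjusted p-values in edgeR from 0.0507 for Rab11a to 0.0871 for Sppl2b. The unadjusted count went from 1223 to 985, with 42.3% of these higher in place of 26.3%. Tmem70, Creld2, Ssr3 and Slc25a12 were among the 6.

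**Figure D5:**
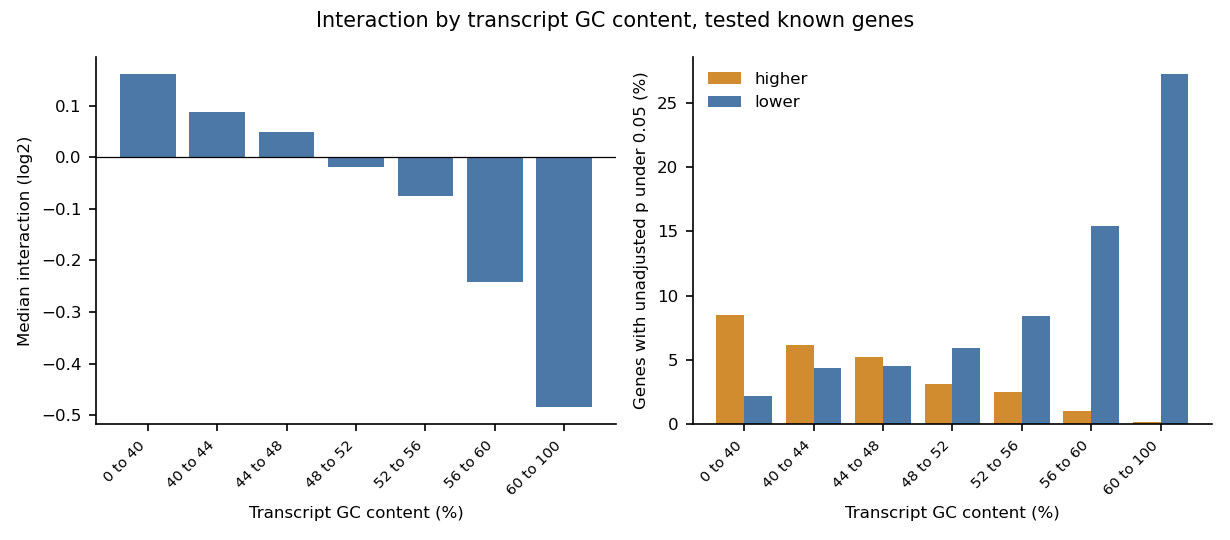
Tested known genes in 7 bins of transcript GC content (percent), with the median interaction (log2, left) and the percent of genes with an unadjusted p under 0.05 in each direction (right). The median goes from 0.16 to -0.49 and the percent lower from 2.18 to 27.2 from the lowest to the highest bin.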

How the data were processed

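The mPFC of 16 mice was sequenced as cDNA on the Nanopore platform after PCR. The authors kept full-length reads, removed ribosomal reads, clustered the rest on mm10 with minimap2 and Pinfish, and consolidated them with cDNA Cupcake. The deposited counts are the authors' numbers of reads per gene, without normalization, and the deposited CPM values are the same counts over each column's total, in CPM (largest difference 4.99e-06). PCR reads without molecular identifiers are not independent molecules.

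Counts were fitted with edgeR 4.0.16 (R 4.3.3) with 1 coefficient per group, TMM factors and filterByExpr on the 4 groups. The quasi-likelihood test compared Kdm7a-shRNA + Morphine minus Ctrl + Morphine with Kdm7a-shRNA + Saline minus Ctrl + Saline. Benjamini-Hochberg adjustment ran over all 18826 tested entries, and known genes are reported. Genes passed at an adjusted p under 0.05 and 1.5-fold, the thresholds of the study's methods. The filter on low counts and the TMM factors were chosen here. Standard errors are the absolute log2 difference over the square root of F. The biological coefficient of variation was 0.215. Adjusted p-values are from this test unless another is named.

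The comparison, its gene lists and the rule for named genes were chosen with earlier results of these data known. The rule names genes of the study or of those earlier results, every gene that passed, the 12 smallest p-values in each direction and up to 4 members per list with an unadjusted p under 0.05; not all are discussed. Lists are described by counts and medians, without a test. The alternatives tried were size factors by RLE, none but library size, no filter on counts, at least 10 counts in every mouse, DESeq2 1.42.0, limma-voom (limma 3.58.1), the replicate number as a block, known genes only, a robust fit, the adjusted p alone, each mouse left out, and a GC correction added after the data were seen. The fit was tested on simulated counts, and the outcome is not reported here. Transcript GC and gene positions are from GENCODE vM21 (GRCm38) and promoters from RefSeq (GRCm38.p6). Assembled loci were tested but are not described, and transcript-level values were not used. Values of 1 gene, left out of its list, and 1 promoter sequence are not reported here.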

Additional observations from a re-analysis of the deposited data

Results flagged for a closer look

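The interaction is itself a test of whether 2 groups differ, here the knockdown effect with morphine and with saline, and 16 known genes passed it. The log2 values were -2.17 for Tmem70, -1.77 for Creld2, 2.30 for Ssr3, 2.08 for Slc25a12, -1.16 for Saraf, -1.36 for Fez2, -1.32 for Pdgfa and -2.60 for Dusp28. They were -1.59 for Rab11a, -1.35 for Tspan3, -2.69 for Tm2d1, -0.997 for Poldip2, -2.31 for Spef1, -2.03 for Gde1, -1.57 for Sppl2b and -0.93 for Rtraf.

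Single mice lay far from the rest of their group by Dixon's test in 17 of 216 sets of a gene and a group of 4 or 5 mice (7.87%), where chance gives about 1 in 20. Kdm7a-shRNA + Morphine replicate 2 was the highest of its group, in normalized CPM, at 10.4 for Dusp28, 97.2 for Tm2d1, 2.16 for Spef1, 86.8 for Gde1, 162.1 for Cox5a, 247.0 for Cyc1 and 73.9 for Uqcrfs1. These 7 values include 4 of the 14 lower genes and 3 subunits of the respiratory chain. In the same group, replicate 4 was the highest at 69.9 for Fos and 8.59 for Slc32a1, and replicate 3 the lowest at 18.7 for Fmo1 and 21.1 for Xpo1. Kdm7a-shRNA + Saline replicate 1 was the lowest of its group at 12.8 for Xpo1 and 5.86 for Ier2 and the highest at 32.4 for Dlgap3, and replicate 4 was the highest at 263.2 for Cyc1. Ctrl + Morphine replicate 3 was the lowest at 76.6 for Ppp1r9b, and replicate 4 the highest at 1.61 for Inhba.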

How the results depend on the processing

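The count of 16 known genes went to 30 with no filter, 205 with DESeq2's Wald test, 50 with limma-voom and 6 with the GC correction, and it was 11 to 16 with RLE size factors, library size only, at least 10 counts in every mouse, known genes only, a robust fit or the adjusted p alone. With 1 mouse left out it ran from 0 (without Ctrl + Saline replicate 2 or 3) to 239 (without Ctrl + Saline replicate 1). The unadjusted count of 1223 stayed within 1.5 times of that value in these alternatives, at 985 to 1634. The replicate number was not taken to pair these mice, which differ between groups, since 4 of 21 same-numbered pairs deviated together with a correlation over 0.1 (median 0.00381). The 74 differently numbered pairs had a median of 0.0097, from -0.525 to 0.386. From the data and not the design, 8 of 16 mice correlated best with a mouse of their own number. How many would do so by chance was not tested. With the replicate block, 6 genes passed, 5 of them among the 16. The sign changed for Kdm7a, whose interaction was -0.028 with the GC correction and ran from -0.036 (without Kdm7a-shRNA + Morphine replicate 1) to 0.29 (without replicate 3), with -0.022 without replicate 4, and for Shank1, from -0.40 to 0.10 with the GC correction. The cause of these changes was not tested. Genes such as Spef1 and Dusp28 rest on as few as 9 reads in a mouse.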
